A study of Mus musculus with 12 samples.

Results

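*RBS* eye lesions are eyes of mouse embryos in which Sonic hedgehog (Shh) and Wnt signaling were switched on together in *Rax*-expressing cells. All 5 samples titled as *RBS* lesions and all 4 titled as control eyes were compared over the 770 genes of a cancer pathway panel, which takes 9 of the 12 samples of the series. The *RBS* genotype is *Rax-creERT2::Ctnnb1(ex3)Fl/+SmoM2Fl/+*, with tamoxifen given at embryonic day (E) 8.5. Controls carried both floxed alleles, *Ctnnb1(ex3)Fl/+SmoM2Fl/+*, without the Cre driver. Eyes of both groups were taken at E18.5, 1 eye per animal, and frozen fresh. Whether the control embryos had been exposed to tamoxifen and the sex of each embryo were not in the labels. The Y-linked gene *Uty* had a signal above 200 in 2 *RBS* lesions and 1 control eye and below 3 in all other eyes.

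Cre recombinase fused to a modified estrogen receptor cuts its target sites only while tamoxifen is present. The floxed *Ctnnb1* allele then loses the exon that marks beta-catenin for degradation, so that Wnt signaling stays on, and the *SmoM2* allele starts to make an active form of Smoothened, the signal transducer of the Shh pathway. *Rax* is a homeobox gene of the early eye field, and it is also active in the ventral forebrain. In the normal retina at late gestation, dividing progenitors rich in *Ccnd1* give rise to neurons in a fixed order. Only cells that had made the Cre recombinase, and their descendants, carry the switched alleles, and whole eyes also hold lens, vessels, periocular mesenchyme and surface epithelium. In such bulk tissue fewer cells of a type and less RNA per cell cannot be told apart.

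RNA was counted with color-coded probes, 1 probe per gene and without amplification, so splice isoforms of a gene were not separated. Values are the normalized signal on a linear scale after background subtraction. A gene whose probe did not exceed background takes the minimum of that eye, here called the floor. Groups were compared on log2 of the signal plus 1 with limma, and *p*-values were adjusted over all 770 genes. With 0.05 as the threshold, 51.2% of the panel was called, 33.0% higher and 18.2% lower in the lesions. The groups did not overlap in 43.4% of the genes. Shares of a gene group are read against these 4 percentages. The median log2 difference over the panel was 0.17. With each sample centred on its own median, 177 genes were higher and 177 lower, so that the call of a small rise can depend on the scaling. Values of single eyes are given in the order of the replicate numbers.

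Control 4 differed from the other control eyes. Without it, 48 further genes had all remaining control values below all *RBS* values, whereas leaving out any other single eye separated between 3 and 22 further genes in this direction. In control 4 these genes had a signal inside or above the *RBS* range. Among them were *Ibsp*, a bone matrix protein, *Foxl2*, a transcription factor of the developing eyelid, and *Fgf10*, a growth factor of mesenchyme. *Ibsp* had a signal of 13.4, 16.6, 1.06 and 452 in control eyes and of 599.5, 91.6, 170.5, 29.0 and 452 in *RBS* lesions. *Fgf10* was 7.57, 11.5, 13.1 and 119 in control eyes and 112, 224, 105, 30.2 and 24.3 in *RBS* lesions. Neither was called over all 9 eyes (adjusted *p* = 0.136 and 0.127), and both were higher in *RBS* lesions without control 4 (log2 difference 4.37 and 2.68, adjusted *p* = 0.0114 and 0.0138). *Foxl2* was 34.6, 52.1, 60.9 and 268 in control eyes against 293, 300.5, 267, 139 and 204 in *RBS* lesions, and was called with and without control 4 (log2 difference 1.64 and 2.25), but in only 2 of the 9 fits that left out 1 eye and not with quantile normalization.

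Markers of tissues around the retina moved in the same eye. The summed signal of 7 mesenchyme genes was 57829 in control 4 and between 25546 and 42778 in the other controls, against 19843 to 36410 in *RBS* lesions. The summed signal of 6 surface epithelium genes was 416 in control 4, between 228 and 269.8 in the other controls and between 466 and 809 in *RBS* lesions. Of the 6 epithelial genes 4 were higher in *RBS* lesions, and *Itgb6* stayed under 20 in every eye. The part of these tissues in other results was not tested. Of all calls, 26 appeared and 28 were lost without control 4.

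Sums of cell type markers on the panel are given as a description. Their genes were written with earlier results of these data known, and several, such as *Grin2b*, *Cacna1e*, *Ccnd1* and *Fgf15*, are also reported singly. The sums therefore restate these genes in part. The neuronal genes *Mapt*, *Grin2b* and *Cacna1e* summed to between 2171 and 2908 in *RBS* lesions and between 548 and 701 in control eyes, and all 3 were higher. The progenitor genes *Ccnd1*, *Fgf15* and *Hes5* summed to between 3178 and 4641 in *RBS* lesions and between 14967 and 20586 in control eyes, and all 3 were lower. Myeloid genes, 4 on the panel, summed to between 182 and 245 against between 92.7 and 134. None of the 4 photoreceptor and 4 lens markers of the lists is on the panel. *Gngt1*, a transducin subunit of rod photoreceptors, had a signal of 40.4, 55.1, 55.6 and 31.3 in control eyes and 10.3, 10.6, 17.1, 1.21 and 2.31 in *RBS* lesions, where every value was lower (log2 difference -2.69, standard error 0.61, adjusted *p* = 0.00538, or -1.15 with values under 20 set to 20).

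**Figure D1:**
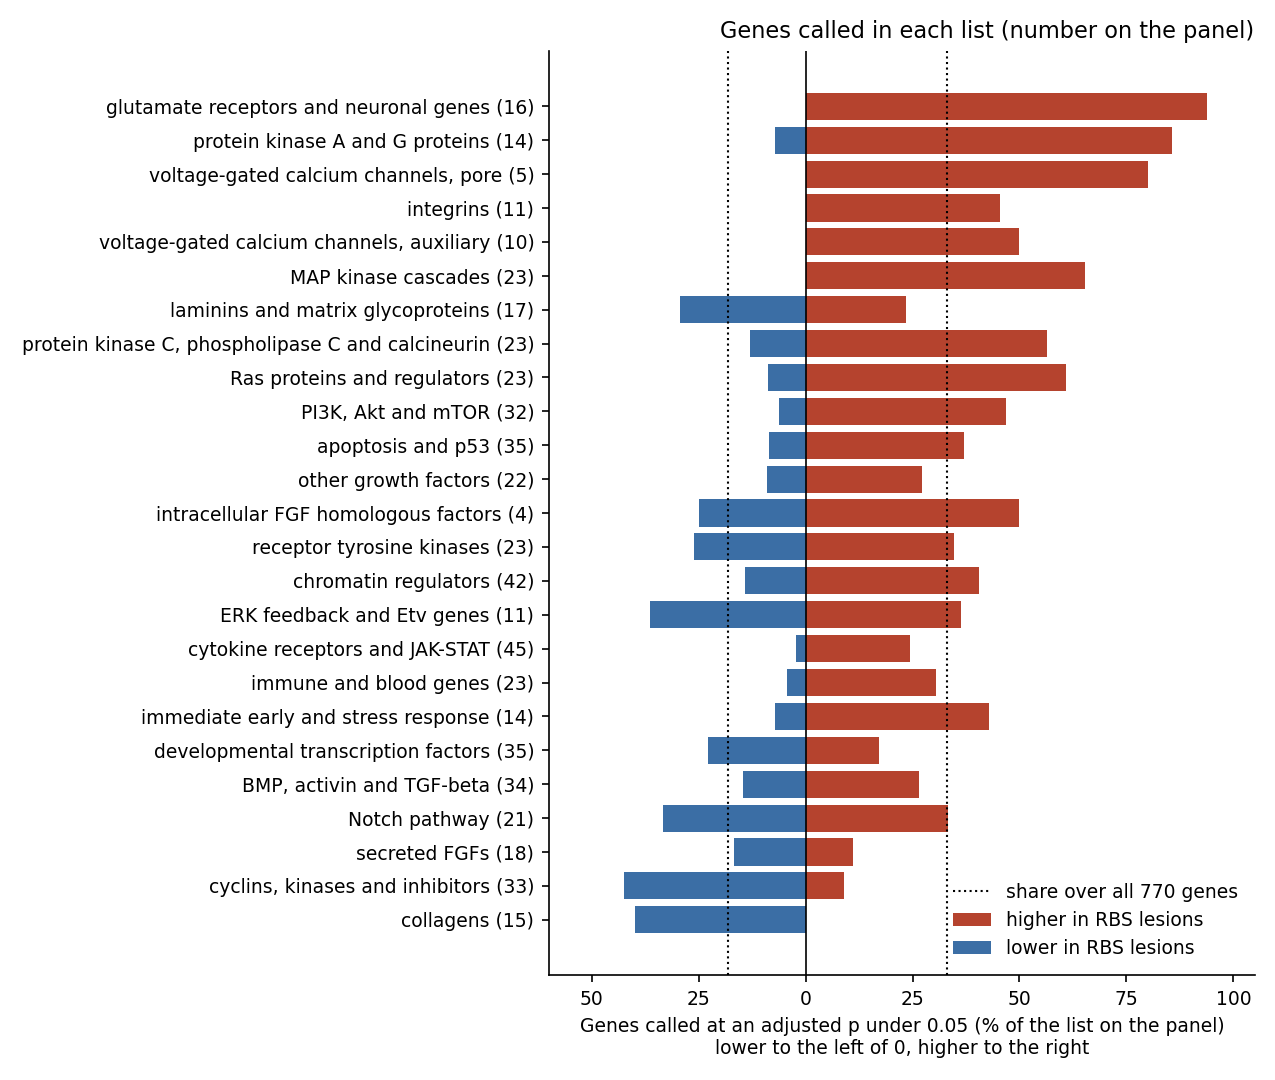
Share of each gene list that was called higher (right, red) or lower (left, blue) by limma in the lesions, in percent of the list's genes on the panel (number in brackets), with lists ordered by their median log2 difference. Dotted lines mark the shares over all 770 genes, 33.0% and 18.2%. Glutamate receptor and neuronal genes reach 15 of 16 higher, and collagens have 6 of 15 lower and none higher over all 9 eyes, with *Col6a6* higher without control 4.

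Fibroblast growth factors (FGFs) are ligands of receptor tyrosine kinases and pattern the early eye. Secreted FGFs were near the limit of the measurement, with 12 of 18 genes under 20 in every eye. Their median log2 difference was -0.29, with 2 genes higher and 3 lower, and with median centring 0 and 5. The 3 genes that fell, *Fgf3*, *Fgf15* and *Fgf9*, are all expressed in the embryonic retina. *Fgf3* had a signal of 125, 114, 119 and 94.9 in control eyes and 1.64, 3.35, 6.54, 2.46 and 1.00 in *RBS* lesions, where 2 eyes were at the floor. No *RBS* lesion came near a control eye, and the fitted log2 difference of -4.98 (adjusted *p* = 7.56e-06) depends on the constant added. With values under 20 set to 20 it was still -2.49. *Fgf15* fell from 1061, 1094, 879.8 and 835 to 145, 152, 146, 149.5 and 74.6 (log2 difference -2.89, standard error 0.22, adjusted *p* = 1.31e-05), with RBS 5 below the other lesions. *Fgf9* fell from 292, 303, 262 and 247 to 57.9, 65.7, 76.2, 63.9 and 41.6 (log2 difference -2.18, standard error 0.17, adjusted *p* = 1.31e-05). Of the genes that rose, *Fgf7* and *Fgf17* had overlapping groups. Neither was called with median centring, nor without any 1 of RBS 3, RBS 4, RBS 5, control 2 and control 3.

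*Fgf3*, *Fgf4*, *Fgf15* and *Ccnd1* stand in this order on mouse chromosome 7 in GRCm38.p6, with no other protein-coding gene lying wholly within the gaps between neighbours. A gene that overlaps the span of a neighbour was not counted. *Ccnd1*, a D-type cyclin that drives progenitors into the cell cycle, was 14029.8, 15077, 15146 and 11229 in control eyes and 2206, 1877, 2236, 1555 and 1406 in *RBS* lesions (log2 difference -2.92, standard error 0.17, adjusted *p* = 3.48e-06). *Fgf4*, between the genes that fell, was 8.75, 7.46, 8.84 and 4.25 in control eyes and 1.64, 3.35, 4.78, 4.87 and 11.5 in *RBS* lesions, close to the floor in both groups (adjusted *p* = 0.285). On the log2 scale with 1 added, the other 3 genes were among the 5 largest falls of the panel. With values under 20 set to 20, *Ccnd1* and *Fgf15* had the 2 largest falls and *Fgf3* ranked 7. *Fgf4* had too little signal to be compared. Among all panel genes, 98 pairs of neighbours lie within 100000 bases of each other. In 17 of these both genes were called, 11 of them in the same direction (6 higher and 5 lower) and 6 in opposite directions. Over the panel, 51.2% of genes were called, 33.0% higher and 18.2% lower. No share was computed for pairs that are not neighbours, so these counts describe the pairs and do not show that neighbours move together.

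The promoter window of *Fgf3* is shown because this gene had at most 6.54 in the lesions against at least 94.9 in control eyes. It was taken from RefSeq, reads from 250 bases before to 50 bases after the gene's start on the plus strand of GRCm38.p6 (chr7:144838362-144838661), and is rich in runs of C and T. *Fgf15* and *Ccnd1* have no entry in that table. None of the motifs searched below was found in it, which says only that these letters are not in this window.
Fgf3 promoter: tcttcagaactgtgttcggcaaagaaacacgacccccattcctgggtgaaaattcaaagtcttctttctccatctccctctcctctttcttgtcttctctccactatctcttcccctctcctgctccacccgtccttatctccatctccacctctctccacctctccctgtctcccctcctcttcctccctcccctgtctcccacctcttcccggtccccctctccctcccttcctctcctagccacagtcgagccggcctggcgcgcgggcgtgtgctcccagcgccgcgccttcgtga

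**Figure D2:**
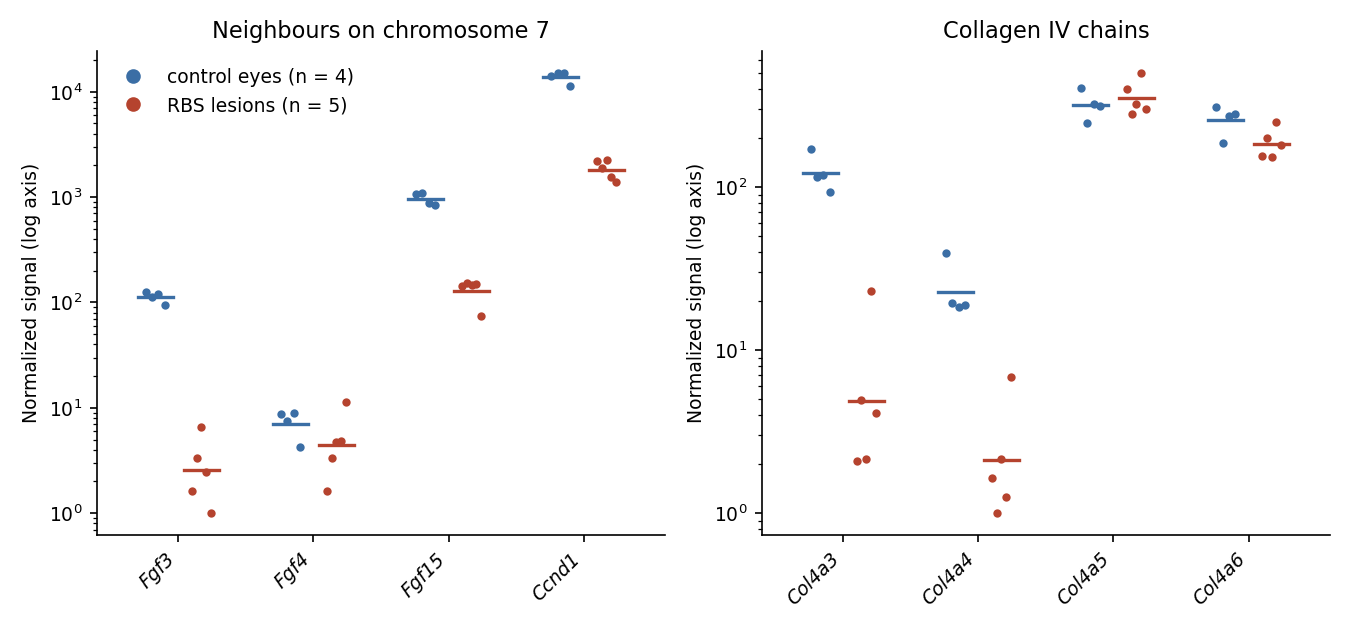
Normalized signal on a log axis in 4 control eyes (blue) and 5 *RBS* lesions (red), with bars at the mean of the log2 values. Left are the chromosome 7 neighbours, where *Fgf3*, *Fgf15* and *Ccnd1* are lower in every lesion and *Fgf4* lies near the floor in both groups. Right are the collagen IV chains, where *Col4a3* and *Col4a4* are lower in every lesion and *Col4a5* and *Col4a6* overlap.

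Intracellular FGF homologous factors are relatives of the FGFs that are not secreted and regulate voltage-gated sodium channels in neurons. All 4 are on the panel, and 2 rose. *Fgf14* rose from 51.0, 68.3, 64.1 and 41.7 in control eyes to 283, 264, 254, 299 and 258 in *RBS* lesions (log2 difference 2.27, standard error 0.15, adjusted *p* = 5.14e-06). *Fgf13* rose from 435, 475, 444 and 375 to 679.9, 731, 856, 986 and 931 (log2 difference 0.94, standard error 0.13, adjusted *p* = 0.000386). In both genes the groups were separate. *Fgf12* was lower with overlapping groups (log2 difference -0.44, adjusted *p* = 0.0208), and *Fgf11* was not called (-0.70, adjusted *p* = 0.325). The call of *Fgf12* was lost without control 1 or control 2, in a fit with all 12 samples of the series and with the replicate number as a block.

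Of 23 receptor tyrosine kinases and related receptors, 8 were higher and 6 lower, a share of 60.9% called, and the median log2 difference was 0.25. *Alk*, a receptor of developing neurons, had a signal of 18.1, 4.42, 11.0 and 2.17 in control eyes and 36.6, 39.0, 47.1, 60.3 and 42.6 in *RBS* lesions (log2 difference 2.52, standard error 0.47, adjusted *p* = 0.00186). All control values were under 20, so its fold is uncertain, and with values under 20 set to 20 the log2 difference was 1.15. *Fgfr3*, an FGF receptor, rose from 255, 90.6, 213 and 210.5 to 532, 555, 599, 975 and 687 (log2 difference 1.86, standard error 0.31, adjusted *p* = 0.000973). Its groups were separate although control 2 lay well below the other controls. The BDNF receptor *Ntrk2* rose by 1.11, *Csf1r* of microglia and macrophages by 1.08, *Fgfr1* by 0.84 and *Egfr* by 0.83 on the log2 scale, each with separate groups. *Egfr* was not called without control 2 or control 3. *Erbb2* and *Kit* rose by 0.53 and 0.48 and were not called with median centring, and *Erbb2* was called in 2 of the 9 fits that left out 1 eye.

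The receptors that fell are known from vessels, neural crest derivatives, neurons and epithelium. *Kdr*, the main receptor of vascular endothelial growth factor, fell from 2012, 2115, 1641 and 1686 in control eyes to 573, 727, 820.1, 639 and 562 in *RBS* lesions (log2 difference -1.49, standard error 0.14, adjusted *p* = 4.32e-05). The other endothelial marker on the panel, *Flt1*, differed by 0.12 with overlapping groups (adjusted *p* = 0.771). *Epha2*, an ephrin receptor, was 22.8, 19.6, 21.6 and 22.0 in control eyes and 3.75, 4.97, 3.02, 4.87 and 9.63 in *RBS* lesions (log2 difference -1.93, standard error 0.25, adjusted *p* = 0.000233). These are low values on both sides, and with values under 20 set to 20 the log2 difference shrank to -0.11. Log2 differences were -1.40 for the neurotrophin receptor *Ngfr*, -1.19 for the GDNF receptor *Ret* and -0.71 for the HGF receptor *Met*, with separate groups. *Igf1r* was lower (log2 difference -0.34) with overlapping groups, and this call held in 2 of the 9 fits that left out 1 eye and not without control 4 (adjusted *p* = 0.0593).

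Among 22 other growth factors, 6 were higher and 2 lower, and without control 4, 9 and 1. With median centring 5 were higher and 3 lower, and with quantile normalization 4 and 4. *Pdgfb*, which recruits pericytes to vessels, rose from 101, 66.2, 71.5 and 101 to 149.8, 164, 142, 209.8 and 154 (log2 difference 0.95, standard error 0.17, adjusted *p* = 0.00149). *Pdgfa*, which retinal neurons use to attract astrocytes, rose from 202, 218, 218 and 275 to 444, 331, 346, 351 and 433 (log2 difference 0.73, standard error 0.13, adjusted *p* = 0.00152). Both PDGF ligands were separate between groups, whereas their receptors *Pdgfra* and *Pdgfrb* were not called (log2 difference 0.53 and 0.36). *Pdgfra* passed the threshold without control 4 (adjusted *p* = 0.00333). *Bdnf*, the ligand of *Ntrk2*, moved against its receptor, from 47.5, 55.1, 46.0 and 51.1 to 38.2, 28.4, 36.5, 27.8 and 38.9 (log2 difference -0.55, standard error 0.13, adjusted *p* = 0.0063).

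Cytokine receptors and the JAK-STAT pathway had 11 genes higher and 1 lower of 45, 26.7% of the list, and 21 of its genes stayed under 20 in every eye. With low genes left out of the fit, 9 were higher and 1 lower of 20. With median centring 7 were higher and 1 lower. *Lepr*, the leptin receptor, rose from 33.4, 26.7, 39.6 and 68.8 to 112, 113, 126, 135 and 106 (log2 difference 1.55, standard error 0.24, adjusted *p* = 0.00063). Downstream of such receptors, *Stat3* rose by 1.29, *Jak2* by 0.94 and *Jak1* by 0.31 on the log2 scale, the latter not with median centring. *Socs3*, an inhibitor that STAT proteins induce, fell from 34.6, 28.7, 34.3 and 29.2 to 21.8, 24.4, 18.9, 26.6 and 22.4 (log2 difference -0.46, standard error 0.12, adjusted *p* = 0.00889), a call lost with a trended, robust variance (adjusted *p* = 0.0687). *Il7r* was called (1.29, adjusted *p* = 0.00606), yet its signal was 1.17, 1.01, 1.06 and 1.13 in control eyes and 1.64, 3.35, 7.42, 6.08 and 4.14 in *RBS* lesions, so the call rests on values at or just above the floor.

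Collagens, the main fibrous proteins of the matrix, had 6 of 15 genes lower and none higher (median log2 difference -0.48), and with median centring 10 were lower. Without control 4, 6 collagens were lower and 1 was higher, *Col6a6* (log2 difference 1.03, adjusted *p* = 0.00365). *Col4a3* and *Col4a4* encode chains of a basement membrane collagen that is found in the eye, the kidney and the inner ear. *Col4a3* had a signal of 171, 116, 118 and 93.8 in control eyes and 2.10, 4.97, 2.14, 23.0 and 4.14 in *RBS* lesions (log2 difference -4.38, standard error 0.56, adjusted *p* = 0.000225). *Col4a4* had 39.3, 19.6, 18.4 and 18.8 against 1.64, 1.00, 2.14, 1.26 and 6.89 (log2 difference -2.93, standard error 0.41, adjusted *p* = 0.000361). Every lesion was below every control eye in both genes, and the highest lesion was RBS 4 for *Col4a3* and RBS 5 for *Col4a4*. With values under 20 set to 20 the difference of *Col4a3* was -2.57, and that of *Col4a4* was -0.24 and no longer called. *Col4a5* and *Col4a6* encode further collagen IV chains and lie next to each other on the X chromosome. Neither was called (log2 difference 0.15 and -0.48, adjusted *p* = 0.583 and 0.067), although *Col4a6* was lower with median centring.

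*Col4a3* and *Col4a4* lie head to head on chromosome 1, with overlapping gene spans in RefSeq, and are read in opposite directions. The start of *Col4a4* is shown because both genes fell together and this window lies near where they meet. It is given on the minus strand of GRCm38.p6 (chr1:82586800-82587099), from RefSeq, and the capitals mark its single match to the E-box CACCTG, which reads CAGGTG on this strand.
Col4a4 promoter: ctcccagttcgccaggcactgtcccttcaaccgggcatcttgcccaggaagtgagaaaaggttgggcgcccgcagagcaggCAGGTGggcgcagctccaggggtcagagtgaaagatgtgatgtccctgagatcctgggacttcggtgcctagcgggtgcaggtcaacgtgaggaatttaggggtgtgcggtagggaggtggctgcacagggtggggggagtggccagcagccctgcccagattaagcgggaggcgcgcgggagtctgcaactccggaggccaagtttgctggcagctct

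The other collagens that fell were fibrillar. Log2 differences were -1.75 for *Col24a1*, -1.30 for *Col11a1*, -0.91 for *Col1a2* and -0.90 for *Col1a1*, with overlapping groups in *Col1a1*, which was called in 2 of the 9 fits that left out 1 eye and not with quantile normalization or without control 4. *Col1a2* was not called without control 1. *Col3a1*, a partner of *Col1a1* in connective tissue, did not move with them (log2 difference 0.01, adjusted *p* = 0.975). The mesenchyme sums of both groups overlapped.

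Of 17 laminins and other matrix glycoproteins, 4 were higher and 5 lower. Without control 4, 7 were higher, *Lama3* and *Lamb3* among them (log2 difference 1.97 and 1.82, adjusted *p* = 0.0163 and 0.0124). With values under 20 set to 20, 2 were higher and 4 lower. *Tnc*, a tenascin of the developing nervous system, rose from 215, 197, 216 and 254 to 532, 502, 527, 726 and 531 (log2 difference 1.34, standard error 0.13, adjusted *p* = 4.91e-05). *Spp1*, the secreted glycoprotein osteopontin, rose from 219.9, 219, 156 and 368 to 514, 469, 496, 641 and 857 (log2 difference 1.33, standard error 0.26, adjusted *p* = 0.00249). Another tenascin, *Tnn*, went the other way, from 36.9, 29.8, 18.4 and 64.7 to 11.95, 4.97, 15.4, 2.46 and 3.23 (log2 difference -2.29, standard error 0.53, adjusted *p* = 0.00592), at low values and with the call lost when values under 20 were set to 20 (log2 difference -0.79). *Tnr*, a tenascin of the central nervous system, was higher (log2 difference 0.95, adjusted *p* = 0.000522) but under 20 in every eye. *Thbs4*, a thrombospondin of tendon and synapse, fell from 435, 178, 313 and 351 to 80.9, 44.6, 53.3, 49.5 and 28.8 (log2 difference -2.61, standard error 0.32, adjusted *p* = 0.000183). Log2 differences of the other genes that fell were -0.96 for *Thbs1*, -1.03 for *Lama1*, a laminin of the lens capsule and the inner limiting membrane, and -0.57 for *Reln*.

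Integrins, the cell surface receptors for matrix, had 5 of 11 genes higher and none lower (median log2 difference 0.76). With quantile normalization, and also without control 1, 4 were higher and 1 lower. *Itga2*, a collagen receptor subunit, rose from 36.9, 19.6, 24.8 and 29.2 to 181, 137, 126, 179.7 and 158 (log2 difference 2.48, standard error 0.19, adjusted *p* = 1.31e-05). *Itgb8*, which activates latent TGF-beta, rose from 239, 265, 194 and 209 to 393, 468, 447, 445 and 476 (log2 difference 0.98, standard error 0.11, adjusted *p* = 0.000121). In both genes the groups were far apart, control 4 included. *Itga2* and *Itgb4* are also among the surface epithelium markers, whose sum was higher in every lesion than in every control eye, and its part in the integrin count was not tested. *Itga6* rose by 0.74 on the log2 scale. *Itga8* and *Itgb4* were higher with control 4 inside the *RBS* range (adjusted *p* = 0.0297 and 0.0139, and 0.000124 and 0.00157 without it). The call of *Itga8* was lost without any 1 of RBS 1, RBS 4, control 1, control 2 and control 3. It was also lost with quantile normalization and in the fit with all 12 samples.

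**Figure D3:**
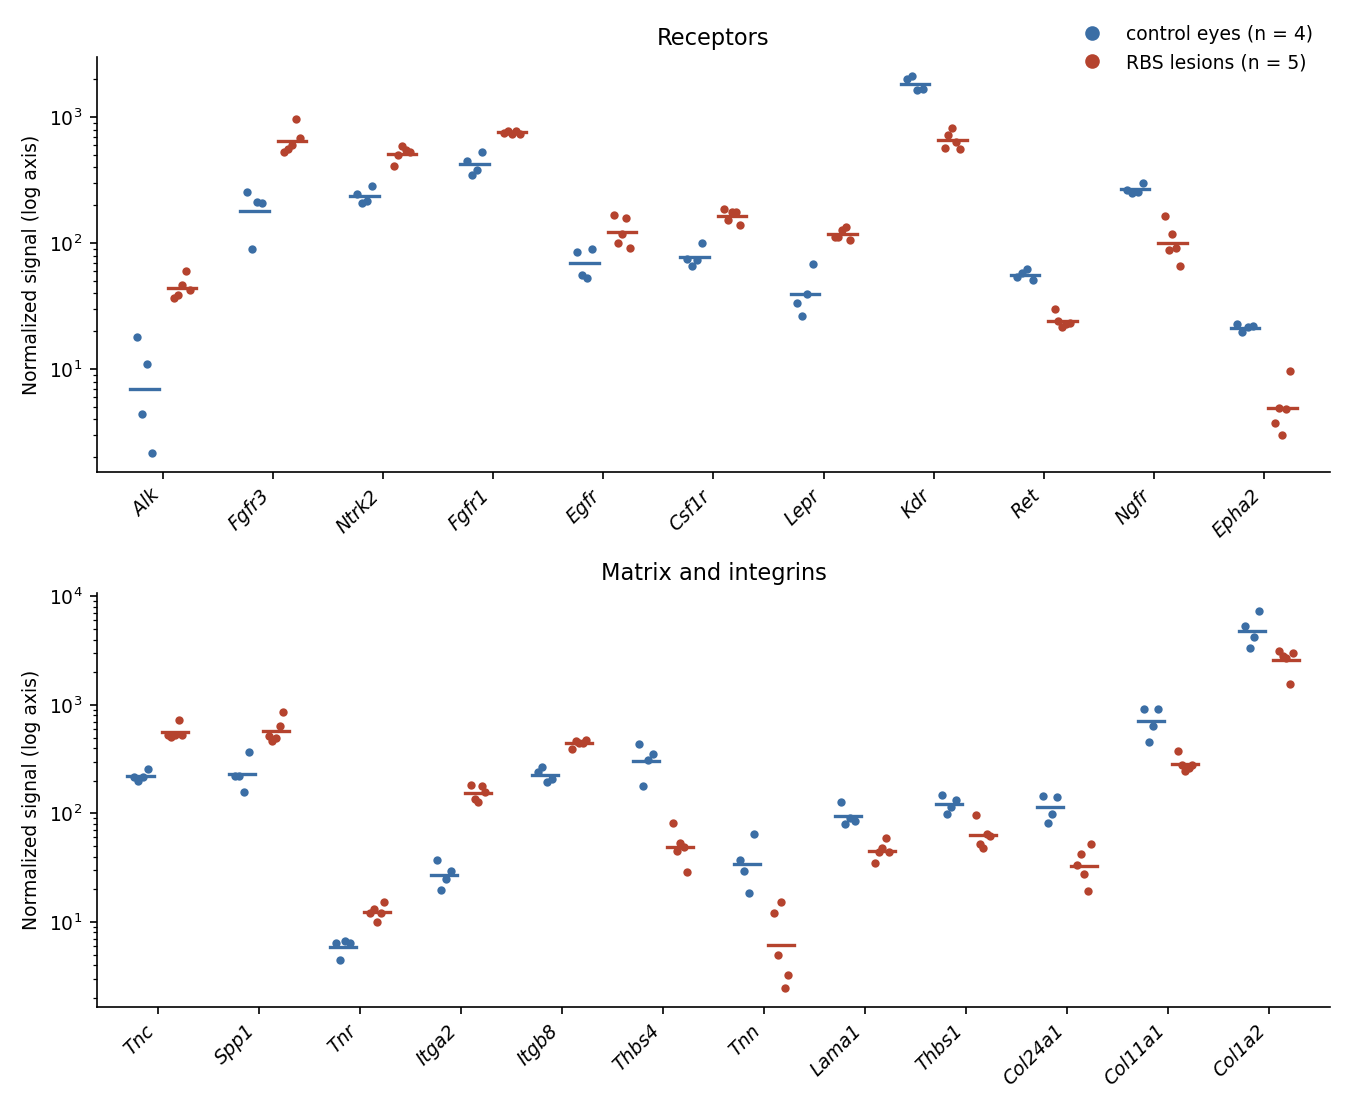
Normalized signal on a log axis of receptors (top) and of matrix and integrin genes (bottom) in 4 control eyes (blue) and 5 *RBS* lesions (red), with bars at the mean of the log2 values. *Alk* to *Lepr* are higher and *Kdr* to *Epha2* lower in every lesion, with the groups of *Egfr* close together. In the lower plot *Tnc* to *Itgb8* are higher and *Thbs4* to *Col1a2* lower in every lesion.

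Voltage-gated calcium channels let calcium into excitable cells and consist of a pore and auxiliary subunits. Of 5 pore genes 4 were higher, and of 10 auxiliary genes 5 were higher. None was lower in either list. *Cacna1e*, the pore of a neuronal channel, had a signal of 5.23, 5.43, 3.53 and 7.38 in control eyes and 92.4, 119.9, 122, 148 and 143 in *RBS* lesions (log2 difference 4.32, standard error 0.20, adjusted *p* = 1.76e-06). With values under 20 set to 20 the log2 difference was 2.63. *Cacna1g*, a pore opened by small depolarisations, rose from 140.2, 96.7, 106 and 151 to 247, 223, 202, 235 and 242 (log2 difference 0.91, standard error 0.15, adjusted *p* = 0.000761). The auxiliary subunit *Cacna2d2* rose from 179, 152, 135 and 105 to 440.3, 393, 381, 548 and 471 (log2 difference 1.65, standard error 0.17, adjusted *p* = 6.97e-05), and *Cacnb4* rose from 19.3, 21.6, 20.5 and 15.7 to 41.5, 66.5, 48.0, 73.6 and 83.7 (log2 difference 1.61, standard error 0.21, adjusted *p* = 0.000258). In a fit with all 12 samples of the series *Cacna1g* and *Cacna2d2* were not called (adjusted *p* = 0.167 and 0.0778), and 3 auxiliary genes were higher. Groups were separate in all 4 of these genes. *Cacna1h* and *Cacna2d1* were not called (log2 difference -0.16 and 0.18).

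Glutamate receptor and other neuronal genes had 15 of 16 members higher, 93.8% of the list, with a median log2 difference of 1.69. *Grin2b*, a subunit of the NMDA receptor, rose from 42.8, 34.8, 29.0 and 18.8 to 311, 262, 243, 328 and 294 (log2 difference 3.21, standard error 0.22, adjusted *p* = 6.82e-06). Its obligatory partner *Grin1* rose by 2.30 (by 1.22 with values under 20 set to 20), and *Grin2a*, a subunit of mature neurons, was not called (0.10, adjusted *p* = 0.877). *Baiap3*, which serves vesicle traffic in neurons and endocrine cells, was at the floor in 3 control eyes. Its signal was 4.05, 1.01, 1.06 and 1.04 in control eyes and 59.5, 56.8, 51.5, 78.4 and 57.2 in *RBS* lesions, and with values under 20 set to 20 it differed by 1.59. Further genes of the list were *Camk2b*, a kinase activated by calcium, with 1.69, *Tspan7* with 1.64 and *Gria3*, an AMPA receptor subunit, with 1.07 on the log2 scale. The neuronal marker sum, which itself holds *Grin2b* and *Cacna1e*, was higher in the same eyes, and the part of a change in neuron number was not tested.

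MAP kinase cascades carry signals from receptors to the nucleus in 3 tiers of kinases. Of 23 genes 15 were higher and none lower, and with median centring 8 were higher and 2 lower. *Mapk10*, the neuronal member of the JNK group, rose from 324, 259.8, 285 and 214 to 1195, 1212, 1130.4, 1484 and 1293 (log2 difference 2.23, standard error 0.14, adjusted *p* = 4.01e-06). *Pak3*, a kinase downstream of Rac and Cdc42 in neurons, rose from 443, 360.2, 368 and 296 to 823, 839.6, 829.8, 1132 and 868 (log2 difference 1.29, standard error 0.14, adjusted *p* = 0.000102). Both stood clear of the scaling (log2 difference 2.05 and 1.11 with median centring). The widely expressed *Mapk3* and *Braf* rose by 0.53 and 0.52 on the log2 scale, and both calls held with median centring.

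The list of ERK feedback and Etv genes holds phosphatases, inhibitors and Etv transcription factors, not all of them specific to ERK, and it did not move as one. Of its 11 genes, 4 were higher and 4 lower. With median centring 2 were higher and 5 lower, and without RBS 1, RBS 4, control 2 or control 3 also 2 were higher. *Dusp4* rose from 563, 670.4, 441 and 503 to 993, 2133, 1769, 2171 and 2519 (log2 difference 1.76, standard error 0.26, adjusted *p* = 0.000516), with RBS 1 lowest. *Dusp8*, a phosphatase of neurons that acts on JNK and p38, rose from 124, 124, 100.2 and 80.3 to 255, 245, 262, 356 and 271 (log2 difference 1.38, standard error 0.16, adjusted *p* = 0.000144). *Dusp5*, which acts on ERK in the nucleus, fell from 61.5, 69.3, 67.3 and 43.8 to 41.5, 30.9, 25.9, 38.6 and 30.7 (log2 difference -0.83, standard error 0.18, adjusted *p* = 0.00403). *Spry2*, an inhibitor of receptor tyrosine kinase signaling, fell from 578, 475, 509 and 493 to 327, 289.9, 284, 309 and 271 (log2 difference -0.79, standard error 0.093, adjusted *p* = 0.000142). *Dusp6* and *Etv4*, which respond to FGF signaling in many tissues, were lower (log2 difference -0.61 and -0.53), with overlapping groups in *Etv4*. The call of *Etv4* held in 2 of the 9 fits that left out 1 eye, and was lost without control 4 (adjusted *p* = 0.0794) and with values under 20 set to 20.

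Of 23 Ras proteins and regulators, 14 were higher and 2 lower, and with median centring 9 and 2. *Shc3*, a neuronal adaptor of receptor tyrosine kinases, rose from 67.4, 74.4, 66.2 and 56.3 to 296, 398, 354, 377 and 464 (log2 difference 2.49, standard error 0.14, adjusted *p* = 3.16e-06). Its widely expressed relative *Shc1* was lower (-0.58, adjusted *p* = 0.00966) with overlapping groups. *Rasgrf2*, an exchange factor that couples calcium to Ras, rose from 46.3, 55.1, 42.8 and 40.7 to 140.0, 126, 170.5, 131 and 188 (log2 difference 1.68, standard error 0.15, adjusted *p* = 2.81e-05). *Rasa4*, a Ras GTPase-activating protein, fell from 68.6, 77.4, 72.6 and 95.9 to 34.9, 45.4, 32.1, 27.8 and 27.0 (log2 difference -1.22, standard error 0.17, adjusted *p* = 0.000332). *Hras* rose by 0.42 on the log2 scale and was not called with median centring, and *Nras* was not called (0.02, adjusted *p* = 0.881).

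In the PI3K, Akt and mTOR list, 15 of 32 genes were higher and 2 lower, and with median centring 9 and 3. The largest rises were regulatory subunits of a serine/threonine phosphatase that are enriched in brain. *Ppp2r2b* rose from 83.8, 85.5, 75.8 and 70.9 to 324, 413, 459, 570.2 and 574 (log2 difference 2.52, standard error 0.17, adjusted *p* = 7.93e-06), and *Ppp2r2c* rose from 139, 179.8, 148 and 134 to 417, 428, 501, 534 and 556 (log2 difference 1.69, standard error 0.13, adjusted *p* = 1.31e-05). *Eif4ebp1*, a repressor of translation that mTOR switches off, fell from 418, 452, 354 and 519.8 to 237, 234, 274, 239.9 and 221 (log2 difference -0.84, standard error 0.12, adjusted *p* = 0.000432). *Foxo4* was lower (log2 difference -0.39, standard error 0.12, adjusted *p* = 0.0245), and this call was lost in 5 of the 9 fits that left out 1 eye. *Tsc1* rose by 0.65 on the log2 scale, a call that held with median centring, and *Mtor* was not called (0.32, adjusted *p* = 0.133).

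Protein kinase A relays cyclic AMP, and in the Shh pathway it turns Gli proteins into repressors. Of 14 genes of protein kinase A and heterotrimeric G proteins, 12 were higher and 1 lower, 92.9% of the list, with a median log2 difference of 0.99. The catalytic subunit *Prkacb* rose from 368, 462, 364 and 433 to 741, 1031, 1080.2, 1058 and 1176 (log2 difference 1.31, standard error 0.15, adjusted *p* = 0.000114), whereas *Prkaca* was not called (0.23, adjusted *p* = 0.0924). The regulatory subunit *Prkar1b* rose from 259.8, 265, 229.8 and 202 to 611, 713, 713, 872 and 804 (log2 difference 1.63, standard error 0.13, adjusted *p* = 1.63e-05). *Gng2* and *Gng4* encode gamma subunits of G proteins. *Gng2* rose from 774, 737, 634 and 618 to 2579, 2924, 2764, 3570.4 and 3399 (log2 difference 2.14, standard error 0.13, adjusted *p* = 3.49e-06), and *Gng4* rose from 73.3, 80.4, 74.7 and 42.8 to 252, 211, 248, 336 and 284 (log2 difference 1.98, standard error 0.21, adjusted *p* = 7.39e-05). *Tshr*, the receptor of thyroid-stimulating hormone, fell from 99.1, 104, 81.1 and 88.6 to 36.6, 38.2, 42.7, 33.8 and 16.9 (log2 difference -1.50, standard error 0.25, adjusted *p* = 0.000877). With median centring 11 genes of the list remained higher and 1 lower.

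Among 23 genes of protein kinase C, phospholipases and calcineurin, 13 were higher and 3 lower. *Plcb1*, a phospholipase C driven by G proteins, rose from 68.6, 42.9, 58.8 and 68.8 to 230.2, 269, 341, 353 and 392 (log2 difference 2.39, standard error 0.20, adjusted *p* = 2.01e-05). *Prkca* rose from 116, 101, 117 and 107 to 319, 304, 291, 303 and 329 (log2 difference 1.48, standard error 0.082, adjusted *p* = 3.11e-06). *Pla2g5*, a secreted phospholipase, fell from 107, 139, 135 and 76.1 to 38.2, 41.4, 49.7, 57.9 and 27.9 (log2 difference -1.39, standard error 0.24, adjusted *p* = 0.00123). *Pla2g4e* was 1.71, 6.44, 1.41 and 2.17 in control eyes and 28.4, 13.1, 10.9, 16.9 and 20.6 in *RBS* lesions, and its call (log2 difference 2.36, adjusted *p* = 0.000722) was lost with values under 20 set to 20. The calcineurin subunit *Ppp3ca* was lower (log2 difference -0.26, adjusted *p* = 0.0267), a call lost in 6 of the 9 fits that left out 1 eye.

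**Figure D4:**
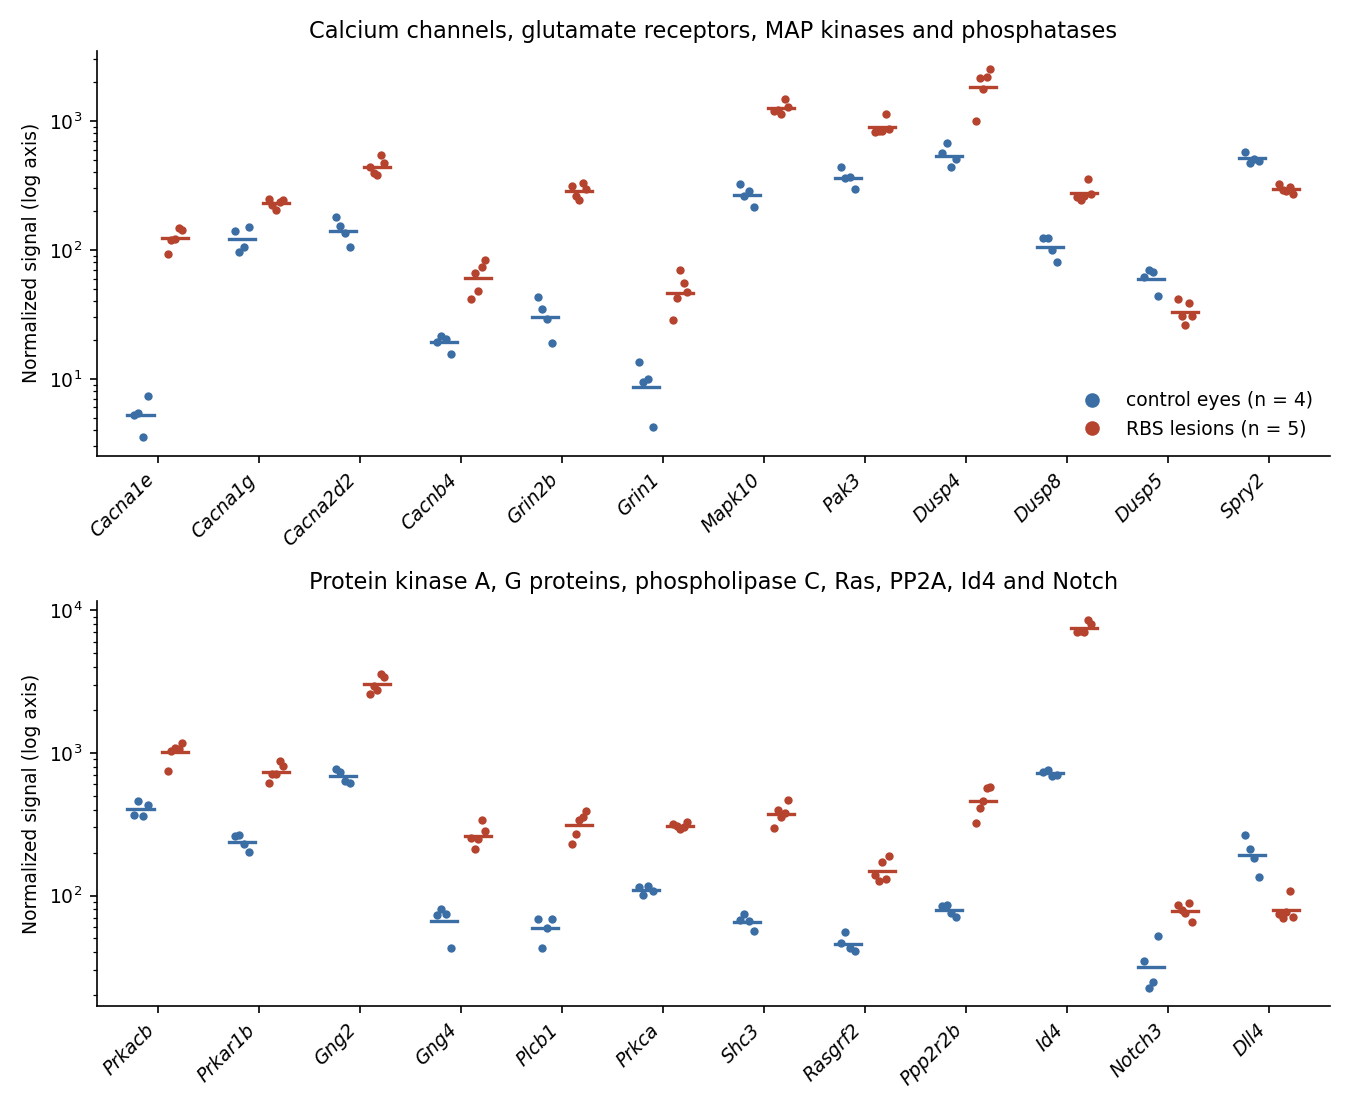
Normalized signal on a log axis of signaling genes in 4 control eyes (blue) and 5 *RBS* lesions (red), with bars at the mean of the log2 values. In the upper plot *Cacna1e* to *Dusp8* are higher and *Dusp5* and *Spry2* lower in every lesion. In the lower plot *Prkacb* to *Notch3* are higher and *Dll4* lower in every lesion.

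Notch signaling between neighbouring cells keeps progenitors from differentiating. Of 21 genes 7 were higher and 7 lower. Receptors and modifiers were among those that rose, and ligands and targets among those that fell. *Notch3* rose from 34.6, 22.7, 24.8 and 52.2 to 85.8, 78.6, 75.3, 88.0 and 65.4 (log2 difference 1.27, standard error 0.23, adjusted *p* = 0.00148), *Notch2* by 0.74 and *Lfng*, which modifies the receptors, by 0.74 on the log2 scale, and the calls of all 3 held with median centring. *Dtx3*, a ubiquitin ligase of the pathway, rose from 401, 329.8, 367 and 348 to 696, 572, 554, 762 and 618 (log2 difference 0.82, standard error 0.12, adjusted *p* = 0.000426). *Dll4*, a ligand of newborn retinal neurons and of vessels, fell from 267, 213, 182 and 135 to 74.3, 69.7, 77.1, 107 and 70.9 (log2 difference -1.29, standard error 0.21, adjusted *p* = 0.000761). The target gene *Hes5* fell from 4324, 4416, 3915 and 2903 to 1853, 2281, 2259.6, 2353 and 1697 (log2 difference -0.89, standard error 0.16, adjusted *p* = 0.00138), and *Hes1*, *Dll3* and *Dll1* were lower (log2 difference -0.73, -0.82 and -0.34), the call of *Dll1* in 2 of the 9 fits that left out 1 eye. *Jag2* was an exception among the ligands, being higher by 0.90 with overlapping groups, and *Notch1* was not called (-0.22, adjusted *p* = 0.197) unless samples were median centred, where it was lower.

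In the BMP, activin and TGF-beta list 9 of 34 genes were higher and 5 lower, and with median centring 9 were higher and 10 lower, as the median log2 difference moved from 0.05 to -0.13. *Id4*, an inhibitor of basic helix-loop-helix factors in neural precursors and astrocytes, was 728, 764, 688 and 698 in control eyes and 7018, 7171, 7048, 8581 and 7947 in *RBS* lesions (log2 difference 3.39, standard error 0.091, adjusted *p* = 3.25e-08). The spread within each group was small beside this difference. The antagonists *Fst* and *Nog* rose by 1.31 and 1.26 and the receptors *Bmpr1b* and *Acvr2a* by 1.11 and 1.08 on the log2 scale. *Nog* was not called in the fit with all 12 samples. *Gdf6*, a BMP that patterns the dorsal retina, fell from 49.8, 55.1, 35.4 and 39.7 to 13.6, 13.9, 14.5, 4.87 and 4.14 (log2 difference -2.18, standard error 0.38, adjusted *p* = 0.00123), and differed by -1.15 with values under 20 set to 20. *Bmp5* was 1.71, 1.38, 5.66 and 5.30 in control eyes and 21.8, 9.01, 13.6, 6.08 and 19.7 in *RBS* lesions, close to the floor, and its call (adjusted *p* = 0.00926) was lost with values under 20 set to 20.

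The promoter windows of *Id4* and *Mapk10* are shown as those of strong rises, from RefSeq and GRCm38.p6. That of *Id4* lies on the plus strand (chr13:48260866-48261165), with both of its CCAAT boxes, which read ATTGG on this strand, in capitals. That of *Mapk10*, from the upstream one of 2 starts in the table, lies on the minus strand (chr5:103211285-103211584), with its single cyclic AMP response element in capitals.
Id4 promoter: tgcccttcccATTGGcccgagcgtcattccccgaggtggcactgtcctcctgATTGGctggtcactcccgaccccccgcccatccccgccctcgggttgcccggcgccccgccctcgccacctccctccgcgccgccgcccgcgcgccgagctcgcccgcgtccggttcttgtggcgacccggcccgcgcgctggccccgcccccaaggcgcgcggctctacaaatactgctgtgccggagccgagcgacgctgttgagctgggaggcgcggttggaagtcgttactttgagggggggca
Mapk10 promoter: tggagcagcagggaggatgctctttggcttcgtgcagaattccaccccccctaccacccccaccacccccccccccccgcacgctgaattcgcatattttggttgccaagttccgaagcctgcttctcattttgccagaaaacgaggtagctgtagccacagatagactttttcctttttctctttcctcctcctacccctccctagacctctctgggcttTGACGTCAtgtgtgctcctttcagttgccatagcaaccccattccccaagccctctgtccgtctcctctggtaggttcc

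Simple letters of 7 motifs were counted on both strands of the windows of the 575 panel genes with an entry, and no 2 matches overlap in the windows printed here. TGACGTCA, the cyclic AMP response element, was in the windows of 5.08% of 197 genes called higher, 4.67% of 107 called lower and 1.85% of 271 not called, against 2.03% of the 27025 genes of the table. CCAAT was in 39.1% of those called higher, 55.1% of those called lower and 39.1% of those not called, against 41.1% of all. The E2F letters TTTCGCGC and TTTGGCGC were in 4.67% and 3.74% of genes called lower, in 0.508% each of genes called higher, in 1.48% and 1.11% of those not called, and in 0.374% and 0.585% of all. CTTTGAT, bound by TCF and LEF factors, was in 2.03% of genes called higher, 1.87% of those called lower and 2.95% of those not called, against 4.29% of all. GACCACCC, the core bound by Gli factors, was in 3 of the 197 genes called higher and 0 of the 107 called lower, and in 0.369% of those not called, against 0.932% of all. The E-box CACCTG was in 20.3% of genes called higher and in 19.6% each of those called lower and not called, against 22.6% of all. A match is a description of letters, and the counts behind all motifs except CCAAT and the E-box were 20 genes or fewer on the panel.

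Ratios between related genes were compared within each eye. Of 74 pairs of related genes, 68 had both members on the panel. In each eye the log2 ratio of both genes was formed, which cancels the efficiency of the probes when the groups are compared, and groups were compared by an exact permutation test over all 126 choices of 5 of the 9 eyes, two-sided, with Benjamini-Hochberg adjustment over the pairs. The ratio differed at an adjusted *p* under 0.05 in 46 pairs, which is 67.6% of them, with 0.00794 as the smallest *p* that the test can give. The pairs were written with earlier results of these data known, and no share was computed for unrelated genes, so the count is a description of these pairs. *Col4a3* over *Col4a5* had a log2 ratio of -1.73 to -1.09 in control eyes and -7.02 to -4.40 in *RBS* lesions, a change of -4.53 (exact permutation test, adjusted *p* = 0.018). With values under 20 set to 20 it changed by -2.71, less than the next 4 pairs described here, so its size rests on low *Col4a3* values. The ratio of *Id4* to *Id2* was -1.71 to -1.47 in control eyes and 1.89 to 2.17 in *RBS* lesions. *Id2* itself was 2388, 2117, 2235 and 2031 in control eyes and 1834, 1769.8, 1868, 2322 and 1768 in *RBS* lesions, with overlapping groups. *Id1* was not called either (log2 difference -0.19). With median centring *Id1* and *Id2* were both lower.

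The 3 D-type cyclins, which share the job of activating Cdk4 and Cdk6, parted in the same way. *Ccnd2* was 678, 548, 734 and 1012 in control eyes and 1074, 940.0, 852, 845 and 975 in *RBS* lesions, and *Ccnd3* was 261, 249.7, 221 and 324 against 289, 286, 272, 272 and 263. Neither was called over all 9 eyes, while *Ccnd1* fell. Without control 4 *Ccnd2* was higher (log2 difference 0.53, adjusted *p* = 0.0109). The ratio of *Ccnd2* to *Ccnd1* rose by 3.28 and that of *Ccnd3* to *Ccnd1* by 2.99 on the log2 scale, with separate groups. Among the growth arrest and DNA damage genes, *Gadd45a* fell from 817, 1018, 845 and 803 to 238, 234, 302, 230.3 and 235 (log2 difference -1.81, standard error 0.12, adjusted *p* = 5.14e-06). *Gadd45g* rose from 72.1, 59.2, 74.7 and 67.8 to 148, 192, 193, 172 and 181 (log2 difference 1.36, standard error 0.11, adjusted *p* = 1.84e-05), and *Gadd45b* was not called (-0.02, adjusted *p* = 0.969). The ratio of *Gadd45g* to *Gadd45a* changed by 3.17 (exact permutation test, adjusted *p* = 0.018).

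Further pairs with a changed ratio were *Dusp4* over *Dusp6* (2.37), *Plcb4* over *Plcb1* (-1.78), *Fgfr3* over *Fgfr2* (1.61) and *Mapk10* over *Mapk8* (1.46). The ratio of *Akt2* to *Akt1* did not pass the threshold (-0.15, exact permutation test, adjusted *p* = 0.484).

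**Figure D5:**
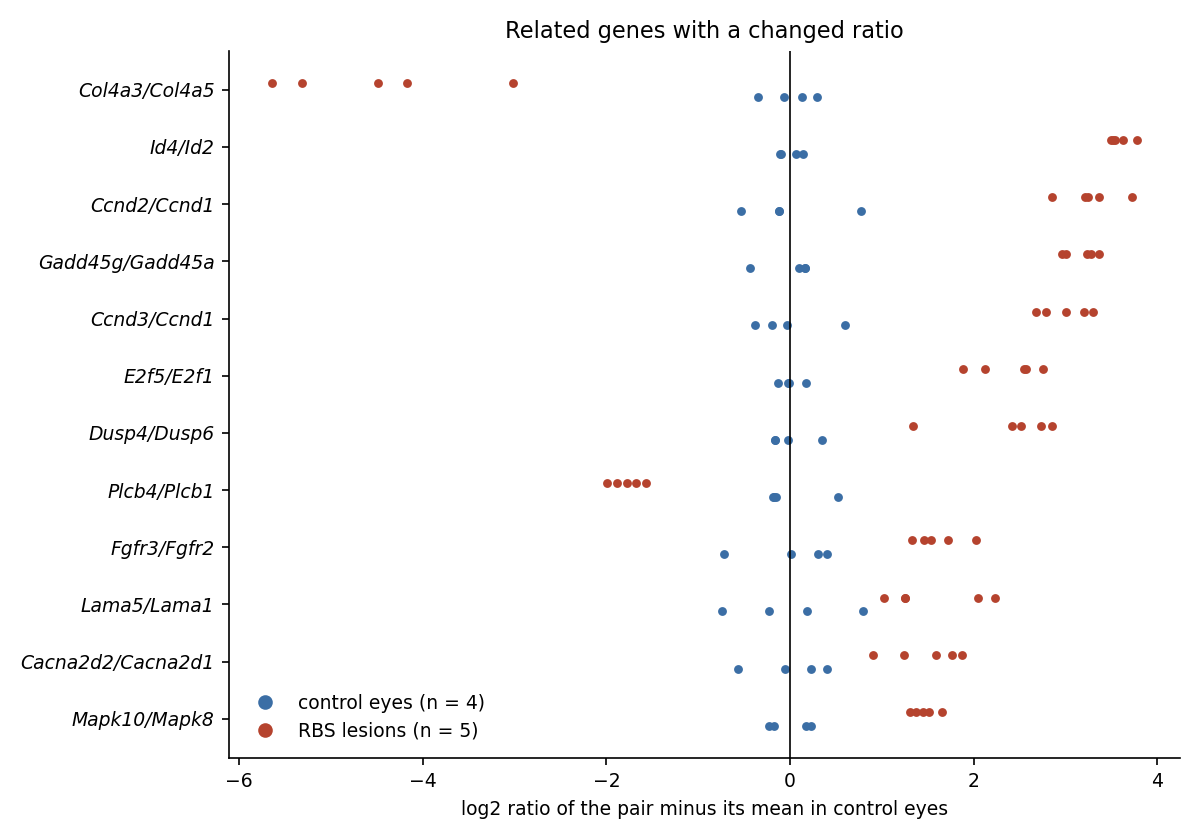
Log2 ratio of each pair of related genes minus its mean in control eyes, for 12 of the called pairs with the largest changes, with 1 point per eye (4 control eyes in blue, 5 *RBS* lesions in red). The points of the groups are separate in all pairs drawn. *Col4a3* over *Col4a5* lies lowest and most spread in *RBS* lesions, and *Id4* over *Id2* is tight in both groups.

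Cyclins, their kinases and inhibitors had 14 of 33 genes lower and 3 higher, and with median centring 18 and 1. Without control 4, 15 were lower and 5 higher. *E2f1*, a transcription factor of S phase entry, fell from 531, 541, 537 and 404 to 166, 109, 152, 109.7 and 95.6 (log2 difference -2.004, standard error 0.18, adjusted *p* = 3.44e-05), with control 4 lowest among controls. *Cdkn2b*, an inhibitor of Cdk4 and Cdk6, rose from 8.75, 8.47, 9.90 and 11.5 to 33.3, 18.7, 27.7, 24.2 and 27.9 (log2 difference 1.34, standard error 0.16, adjusted *p* = 0.000168), and with values under 20 set to 20 the log2 difference was 0.39. Its neighbour *Cdkn2a* was not called (-0.64, adjusted *p* = 0.149), and *Cdkn2c* was lower (log2 difference -1.11). *Rb1* was higher (log2 difference 0.45, standard error 0.10, adjusted *p* = 0.0059) and was not called with median centring.

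Chromatin regulators had 17 of 42 genes higher and 6 lower, which became 7 and 7 with median centring. *Setbp1* rose from 187, 191, 163 and 176 to 357, 463, 394, 435 and 461 (log2 difference 1.23, standard error 0.11, adjusted *p* = 2.42e-05). *Hdac11*, the histone deacetylase most abundant in brain, rose from 195, 156, 205 and 156 to 476, 324, 354, 482 and 395 (log2 difference 1.18, standard error 0.15, adjusted *p* = 0.00025), and was not called in the fit with all 12 samples (adjusted *p* = 0.0742). The DNA methyltransferase *Dnmt3a* rose by 0.92, and *Hmga1*, *Hmga2* and *Ezh2*, which mark immature cells, were lower (log2 difference -1.22, -1.11 and -0.62). The histone genes *Hist2h3b* and *Hist1h3b* were lower (log2 difference -1.57 and -1.57). Their messages are nearly identical to those of other histone genes, so which copy was counted is uncertain, and with quantile normalization *Hist2h3b* was not called.

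Apoptosis genes had 13 of 35 members higher and 3 lower, with 7 and 4 under median centring. The death receptor *Fas* rose from 17.0, 5.43, 9.90 and 7.38 to 44.8, 27.6, 40.9, 41.0 and 42.6 (log2 difference 1.98, standard error 0.28, adjusted *p* = 0.000411), and *Bcl2a1a*, an inhibitor of apoptosis in blood cells, rose from 12.3, 6.44, 19.5 and 10.5 to 33.3, 57.6, 55.0, 56.7 and 37.1 (log2 difference 1.95, standard error 0.29, adjusted *p* = 0.000545). *Fas* rose by 0.96 and *Bcl2a1a* by 1.22 with values under 20 set to 20. Genes on both sides of the decision rose, with *Bax* at 0.61, *Bcl2* at 0.68 and *Bcl2l1* at 0.63 on the log2 scale. All 3 calls held with median centring, and that of *Bax* was lost with quantile normalization. *Birc7*, an inhibitor of apoptosis, fell from 54.5, 28.7, 66.2 and 41.7 to 1.64, 4.16, 15.4, 25.4 and 5.97 (log2 difference -2.48, standard error 0.63, adjusted *p* = 0.00935), and differed by -1.12 with values under 20 set to 20. *Trp53* was not called (-0.08, adjusted *p* = 0.598), and the call of *Tnfrsf10b* as lower (-0.45, adjusted *p* = 0.0332) was lost in 6 of the 9 fits that left out 1 eye.

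Immediate early and stress genes had 6 of 14 members higher and 1, *Gadd45a*, lower. With median centring, or without control 1 or control 2, 3 were higher, and the median log2 difference was -0.09 with median centring against 0.09. *Fos* rose from 29.9, 29.8, 29.0 and 57.4 to 104, 60.8, 83.2, 121 and 59.9 (log2 difference 1.22, standard error 0.28, adjusted *p* = 0.0056), with control 4 just below the lowest lesion. Of 35 developmental transcription factors, 6 were higher and 8 lower, and with values under 20 set to 20, 3 and 7. *Ppargc1a*, a coactivator of mitochondrial genes, rose from 68.6, 64.2, 62.0 and 41.7 to 122, 101, 121, 154 and 118 (log2 difference 1.06, standard error 0.17, adjusted *p* = 0.000761). *Nupr1*, a stress-induced chromatin protein, fell from 771, 275, 1053 and 521 to 101, 89.2, 76.2, 73.6 and 70.9 (log2 difference -2.83, standard error 0.34, adjusted *p* = 0.000164), with a wide spread among control eyes. *Prdm1*, *Rxrg* and *Prom1*, which are expressed in young photoreceptors, were lower (log2 difference -1.66, -1.09 and -1.05).

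Immune and blood genes had 7 of 23 members higher and 1 lower, and 11 of them stayed under 20 in every eye. *Plat*, the tissue plasminogen activator, rose from 139, 114.9, 136 and 181 to 773, 496, 572, 745 and 525 (log2 difference 2.11, standard error 0.18, adjusted *p* = 2.42e-05). *Ptprr*, a phosphatase of neurons that acts on MAP kinases, rose from 28.7, 11.5, 16.3 and 28.2 to 87.4, 97.3, 89.4, 85.6 and 102 (log2 difference 2.16, standard error 0.25, adjusted *p* = 0.000128). These leading genes of the list are not specific to immune cells. *Cd14* and *Csf1r*, of the 4 myeloid markers, were higher, and *Tlr4* and *Csf3r* were not called. The call of *Cd14* was lost without control 2, with quantile normalization and with values under 20 set to 20.

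No gene was at the floor in every eye of one group and above it in every eye of the other. Of the 770 genes, 133 were at the floor in at least 1 eye, 17 in all 9 eyes, 29 in all control eyes and 23 in all *RBS* lesions. In 5 genes all eyes of one group but 1 were at the floor and no eye of the other. *Baiap3*, *Fgf17*, *Nr4a3* and *Pax3* were at the floor in 3 of 4 control eyes. *Pax3*, a factor of the dorsal neural tube and neural crest, was 1.17, 1.01, 1.06 and 15.7 in control eyes and 25.1, 20.3, 12.7, 16.9 and 25.2 in *RBS* lesions, so that control 4 was inside the *RBS* range. *Baiap3* kept its call with values under 20 set to 20 and the other 3 lost theirs, as did *Il12a* and *Hoxa9*. *Il12a*, at the floor in 4 of 5 *RBS* lesions, was 9.92, 9.48, 5.66 and 9.46 in control eyes and 1.64, 1.00, 1.00, 3.67 and 1.00 in *RBS* lesions. *Hoxa9*, a homeobox gene of the trunk, was 4.05, 9.48, 8.84 and 4.25 in control eyes and 1.64, 1.00, 1.00, 1.26 and 1.4 in *RBS* lesions. Of these genes *Baiap3* was the one with a signal of 20 or more in every eye of the other group.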

How the data were processed

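RNA from 1 fresh frozen eye per embryo was counted on the nCounter mouse PanCancer Pathways panel. The authors normalized the counts in nSolver with the Advanced Analysis module, and the deposited values are a linear normalized signal with background subtracted and 1 factor per sample. The background setting and the reference genes are not given in the sources used here. The depth of an eye, as its summed signal in units of its smallest difference between low values, was between 335392 and 637795 in *RBS* lesions and between 590200 and 716684 in control eyes, with 52 to 93 genes per eye at the floor. Values of a few units therefore rest on few counts.

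Log2 of the signal plus 1 was compared in R 4.3.3 by limma 3.58.1 with eBayes, two-sided, with Benjamini-Hochberg adjustment over 770 genes and a threshold of 0.05. Replicates are separate animals per the labels. Log2 ratios of related genes were compared by exact permutation. Gene groups, pairs, motifs and markers were written with earlier results of these data known, and are described by counts and medians without a set test. Named in each group were up to 2 rises and 2 falls with the largest log2 difference among called genes with separate groups, and the genes of the 5 pairs with the largest change. Other genes are background to these and were chosen after their values were seen. Symbols were matched to RefSeq (GRCm38.p6), 760 directly and 10 by an older name. The limma fit was tested on simulated data. Python 3.11.15 and matplotlib 3.10.9 drew the figures. Shh-medulloblastoma samples were used in 1 alternative fit. A few items that these rules name are not reported here.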

Additional observations from a re-analysis of the deposited data

Results flagged for a closer look

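Single eyes that stood apart from the rest of their group were sought on the log2 scale among the 82 named genes, in 164 groups, and 15 were found, where chance would give about 1 in 20 groups. RBS 4 was the eye in 5 of them, each time as the highest lesion. These were *Tnc* with a signal of 725.7, *Pak3* with 1132, *Dusp8* with 356, *Dll4* with 107 and *Id2* with 2322. Control 4 was the lowest control for *Gng4* with 42.8 and for *E2f1* with 404, and the highest for *Fos* with 57.4. RBS 5 was the lowest lesion for *Fgf15* with 74.6 and for *Tshr* with 16.9. Control 1 was the highest control for *Col4a4* with 39.3 and for *Baiap3* with 4.05. RBS 2 was the lowest lesion for *Fas* with 27.6, RBS 3 the highest for *Gadd45a* with 302, and control 3 the lowest control for *Il12a* with 5.66. All of these genes except *Id2* kept their call in each of the 9 fits that left out 1 eye. *Id2*, which was not called over all eyes, was lower in *RBS* lesions without RBS 4 (log2 difference -0.27, adjusted *p* = 0.0295, limma).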

How the results depend on the processing

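The count of 394 genes called (254 higher, 140 lower) stayed within 1.5 times under all alternatives except the methods' t-test with step-down Bonferroni adjustment, which called 72 genes, 41 higher and 31 lower. With Benjamini-Hochberg adjustment the same test called 347. Median centring called 177 higher and 177 lower and quantile normalization 185 higher and 179 lower, and no alternative called a gene in the opposite direction. Leaving out 1 eye at a time gave between 350 and 392 genes, 223 to 261 higher and 121 to 140 lower. The 46 changed pairs became 47 with limma, 43 to 48 with limma and 1 eye left out, 45 with a pseudocount of 5 and 47 with values under 20 set to 20. The count of 0 genes at the floor in 1 group only was 0 under its alternative as well.

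Of 1545 values of the 82 named genes under alternatives, 1442 stayed on the same side of the threshold with the same sign, 95 lost the call, 55 of these under step-down Bonferroni, and 3 gained one. The sign turned in 5 values, all of genes not called. *Ccnd3* had log2 differences of -0.10 with median centring, -0.13 with quantile normalization and between -0.0004 and 0.18 with 1 eye left out. *Col4a5* had -0.031 with median centring and -0.065 with quantile normalization. Setting values under 20 to 20 ended the calls of *Il7r*, *Col4a4*, *Tnn*, *Pla2g4e*, *Bmp5*, *Hoxa9* and *Il12a*. The fit with all 12 samples ended those of *Cacna1g*, *Cacna2d2*, *Hdac11*, *Ppp3ca* and *Tnfrsf10b*, and a trended, robust variance those of *Socs3* and *Tnfrsf10b*. Leaving out 1 eye ended the calls of *Tnfrsf10b*, *Ppp3ca* and *Foxo4* in 6, 6 and 5 of 9 fits.

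Replicate numbers did not pair the samples. Same-numbered eyes correlated at -0.11, 0.16, 0.19 and -0.15 in their deviations from the group means. With the replicate block, which leaves out RBS 5, 301 genes were called, 192 higher and 109 lower, 293 of them also called without the block. Named genes not called with it were *Ppp3ca*, *Foxo4*, *Socs3*, *Tnfrsf10b*, *Tnn*, *Rb1* and *Bmp5*.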
